A study of Triticum aestivum with 122 samples.

Results

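The genes described here lie in the middle of the gene order on 12 wheat chromosomes, 1A to 4D. On each chromosome the entries of the deposited table of normalized counts were put in the order of the number that follows 03G in their identifiers. The members are the entries from 40% to 60% of that order. There were 8819 members, from 8491 gene identifiers, among the 44083 entries of these chromosomes and the 55577 complete entries of the table. The choice used identifiers alone and no measured value. Members were set against the outer entries, the first and last 10% of the order (8816 entries), and against all other entries of the same chromosomes (35264 entries).

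Heads of the bread wheat cultivar Vida were profiled by RNA-seq of poly(A)-selected mRNA. All plants shared the cultivar, germination in the dark for 48 h with 1 µM of the seed agent, growth at 22 °C under 16 h of light, and sampling at booting, when the head is still inside the leaf sheath. The seed agent was 2,4-epibrassinolide (EBR), a brassinosteroid hormone, or its control, dimethyl sulfoxide (DMSO). Pots were then moved to continuous 29 °C or left at 22 °C, and heads were taken at 0, 8, 16 and 24 h. The groups labelled 29 °C at 0 h were taken before the move. Each head was sampled once and split into floret (the flowers) and rachis (the stem of the head). This gave 32 groups, 26 with 4 libraries, 5 with 3 and 1 with 2, in all 61 floret and 60 rachis libraries. The labels' protocol calls the replicates biological replicates and counts 1 plant for each condition and replicate.

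Bread wheat is a hexaploid. Most of its genes are present as an A, a B and a D copy on matching chromosomes that came from related ancestral grasses. In cereals, genes near the centromere lie in large, gene-poor stretches that rarely recombine, while chromosome ends are gene-dense, recombine often and hold many young and duplicated genes. Genes used in most tissues are common in the interior, and genes used in few tissues or under stress are common towards the ends. The identifiers give an order and not a physical distance. The middle of the order is therefore not the same as the physical middle of a chromosome or its centromere, and chromosome coordinates were not used here.

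Whole reads could be recovered from the deposited values, 14457823 to 21776145 reads per floret library and 10598979 to 18208842 per rachis library. In 3 heads the tissue labels went against a score of 300 floret-high and 300 rachis-high entries, as the library labelled floret scored below the one labelled rachis: DMSO at 22 °C and 0 h replicate 1, EBR at 22 °C and 16 h replicate 3, and DMSO labelled 29 °C at 0 h replicate 1. The score entries were those furthest apart between the medians of the libraries labelled floret and rachis in these same data. The other 56 heads with both tissues scored from 0.06 to 3.14 in floret and from -5.12 to -0.66 in rachis. Both the floret and the rachis library of DMSO at 22 °C and 24 h replicate 2 also stood apart from their group, as described with the day change. The main counts of members called are given with and without these heads. Levels, breadth, shares, peak hours and the values of single members are given with them. No identifier matched a gene symbol, so no marker of either tissue could be named and no role is given for any member.

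Members were expressed at a higher level than the rest of their chromosomes. The median over members of the mean normalized count over all 121 libraries was 50.7, against 25.4 for all other entries of the same chromosomes and 11.2 for the outer entries. The middle 50% of members ran from 3.28 to 252 normalized counts. The median of members was above that of outer entries on 12 of 12 chromosomes and in 121 of 121 libraries. Within a library it lay between 35.9 and 54.2 for members and between 5.22 and 16.8 for outer entries, so the ranges did not overlap. These levels are not per length, and no test was made, because entries of a library share its depth and are not replicates. In bulk tissue fewer cells of a type and less RNA per cell cannot be told apart.

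The level did not peak in the exact centre of the order. In steps of 5% of the order, the median was 47.8 normalized counts just outside the lower limit (35% to 40%) and 64.0 just inside it (40% to 45%). It was 36.2 from 45% to 50%, 46.6 from 50% to 55% and 57.9 from 55% to 60%, the last step inside the upper limit. Just outside that limit, from 60% to 65%, it was 34.7. The first 5% of the order had a median of 9.05 and the last 5% had 16.5. The step from 30% to 35%, outside the members, reached 56.3, above 2 of the steps inside. The level thus stepped down on the outer side of both limits, and it also varied between steps inside them.

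**Figure D1:**
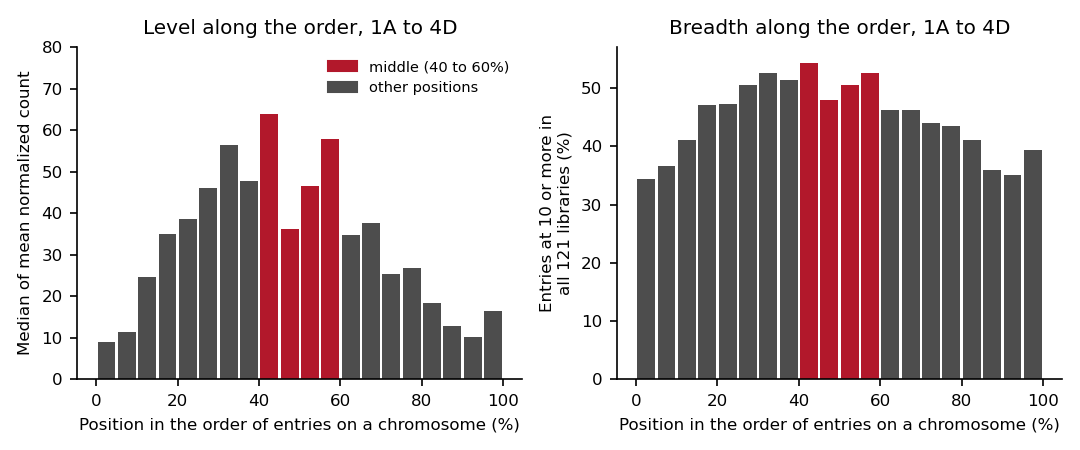
Left, median over entries of the mean normalized count in each 5% step of the order on chromosomes 1A to 4D (linear axis). Right, percentage of entries that reached 10 normalized counts in all 121 libraries. Red bars are members (40% to 60%) and grey bars are other positions. Bars fall towards both ends of the order, to 9.05 and 16.5 on the left panel, and the red bars do not stand above all grey ones.

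Members were also detected more broadly. Of the 8819 members, 4534 (51.4%) reached 10 normalized counts in every library, against 43.3% of the other entries of these chromosomes and 36.4% of outer entries. In 1650 members (18.7%) no library reached 10, against 23.2% and 28.3%. The remaining 2635 members (29.9%) reached 10 in some libraries. Of these, 41 reached 10 in at least 3 floret libraries and in no rachis library, and 105 the other way round. Of the 35264 other entries of these chromosomes 279 and 583 did so, and of the 8816 outer entries 76 and 199. These counts include the 3 heads against their tissue labels. A single library at 10 in the other tissue removes an entry from them. A single library held between 5363 and 6100 members at 10 or more. The percentage in every library was higher, and the percentage in none lower, than in the other entries on 12 of 12 chromosomes. A mean above 1000 normalized counts was found in 534 members (6.06%), 5.71% of the other entries and 4.91% of outer entries, so members differed from outer entries less at the top of the scale than at its middle.

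Members were counted towards a test where they reached 10 normalized counts in at least 3 libraries of a tissue. This held for 6552 members (74.3%) in floret and 6633 (75.2%) in rachis, against 60.5% and 61.9% of outer entries. Among members, outer entries and all others that passed in either tissue, the medians were closer, at 110 for members, 75.1 for outer entries and 89.97 for all other entries of these chromosomes. Replicates of members varied less. The median over tested members of the standard deviation within groups, on the log2 scale, was 0.28 in floret and 0.33 in rachis, against 0.35 and 0.42 for outer entries. The part of the level in this difference was not tested.

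The 3 subgenomes had members at similar levels. The median level was 45.8 normalized counts for 2970 members on A, 53.6 for 2939 on B and 51.6 for 2910 on D. The other entries of the same subgenomes had medians of 24.99 on A, 23.3 on B and 28.3 on D. Members at 10 or more in every library were 51.2% on A, 51.6% on B and 51.4% on D. Chromosome medians ran from 37.4 on 3B to 84.7 on 4B. Each subgenome pools several of these chromosomes, so its median must lie within their range. The percentage in every library ran from 47.2% to 58.0% over the 12 chromosomes, and the percentage in none from 16.2% to 20.1%.

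The identifier numbers give a partial view of what the members share in position. The members of a chromosome spanned between 16.0% (4A) and 26.6% (4D) of its identifier numbers while holding 20% of its entries. On 4B they spanned 24.2% and on 2A 20.9%, and on the other 8 chromosomes between 16.1% and 17.7%. The chromosomes 4B and 4D, where members spanned the most numbers, had the 2 highest median levels, 84.7 and 78.7 normalized counts. The median on 2A was 51.3, below 58.6 on 1D and 58.2 on 1B, where members spanned 16.1% and 16.3%. A link between span and level was not tested. On 4A the members began at 40.3% and ended at 56.3% of the numbers. Whether skipped numbers stand for genes without counts, for low-confidence models or for gaps in numbering was not tested.

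Members held close to their share of all counts, and that share moved little with the hour. They are 20% of the entries and held 20.6% of the normalized counts of chromosomes 1A to 4D on average over libraries, with a range of 20.2% to 21.0%. Outer entries, also 20% of entries, held 16.0% to 19.1%. The median share of members over the libraries of a time, both seeds and temperatures included, was 20.7%, 20.4%, 20.8% and 20.6% at 0, 8, 16 and 24 h in floret and 20.52%, 20.31%, 20.75% and 20.40% in rachis. In both tissues the share was lowest at 8 h and highest at 16 h.

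Within the members, the share of the A subgenome moved in the opposite sense. It held 34.7%, 35.3%, 34.5% and 35.1% of the members' counts at 0, 8, 16 and 24 h in floret, and 34.7%, 35.4%, 34.4% and 35.2% in rachis, as medians over libraries. The 15 floret libraries at 8 h lay between 35.1% and 35.6% and the 15 at 16 h between 34.28% and 35.01%, with no overlap. Without the 100 most abundant members, the A share in floret was 33.9% to 34.2% at 8 h and 33.8% to 34.2% at 16 h, and the ranges overlapped. The other entries of these chromosomes had median A shares of 34.6%, 34.5%, 34.6% and 34.4% in floret at the same times. These medians pool seeds and temperatures. For DMSO seed at 29 °C and 24 h, the mean A share of members was 35.2% in floret and 35.7% in rachis. The other entries of that group had 33.7% in each tissue. For EBR seed at 29 °C and 24 h, members had 35.1% and 35.15%, and the other entries 34.5% in each tissue. For DMSO seed at 22 °C and 24 h, members had 34.7% and 35.4%, and the other entries 34.3% and 33.95%.

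**Figure D2:**
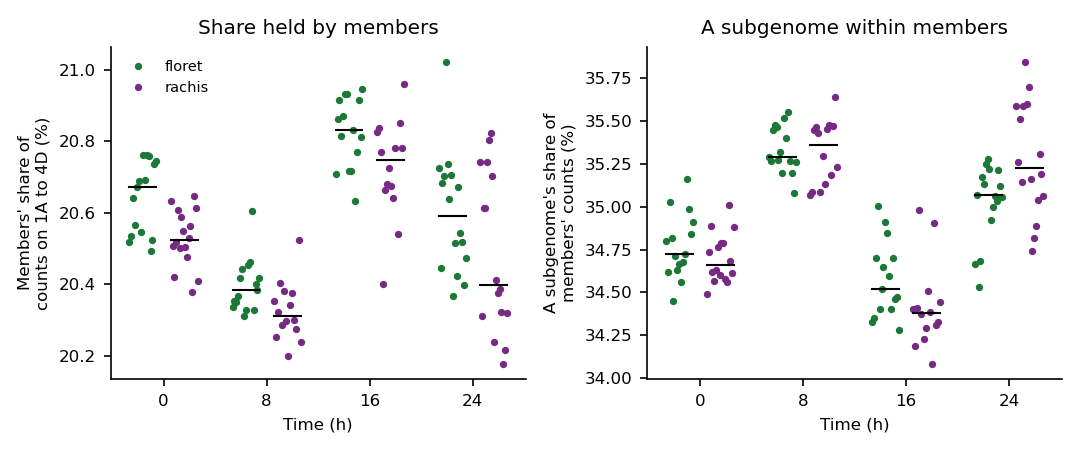
Each point is a library, by time (h) and tissue, with black lines at the medians; the vertical axes are percentages and do not start at 0. Left, the members' share of the normalized counts of chromosomes 1A to 4D; right, the A subgenome's share of the members' counts. The left panel is lowest at 8 h (medians 20.4% in floret and 20.3% in rachis) and the right panel is lowest at 16 h (34.5% and 34.4%).

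The most abundant member of the D subgenome, TraesCS2D03G0807600.1, averaged 28410 normalized counts over all libraries. In floret its median was 24750, 17020, 34360 and 23300 at 0, 8, 16 and 24 h. The 15 libraries at 8 h reached at most 18300, and the 15 at 16 h had at least 30130. In rachis the medians were 31410, 18080, 51060 and 25910, and the 8 h libraries (at most 21740) again lay below all those at 16 h (at least 40190). The time test at 22 °C gave adjusted p-values of 1.1e-14 in floret and 1.3e-14 in rachis (limma, F test, Benjamini-Hochberg over all entries). The difference between its highest and lowest time mean was 1.21 in floret and 1.48 in rachis, on the log2(value + 1) scale.

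The most abundant member on A, TraesCS4A03G0678100.1, averaged 21120 normalized counts. Its floret medians were 24330, 28750, 23490 and 26290 at 0, 8, 16 and 24 h, highest at 8 h, where TraesCS2D03G0807600.1 was lowest. In rachis it ranged from 2325 to 33000. The most abundant member on B, TraesCS2B03G0962800.1, averaged 12460 and was the steadiest of the 3, between 8739 and 18030 in floret and between 8728 and 19280 in rachis. Its time test at 22 °C passed in floret, with an adjusted p of 4.0e-03 by limma, and not in rachis, where the adjusted p was 0.075.

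Over the day at 22 °C, few members changed with EBR seed. All tests from here on were made with limma on log2(value + 1) over the whole table, and a call is a Benjamini-Hochberg adjusted p under 0.05. In floret at 24 h against 0 h, 4 of 6552 members were called (0.061%, beside 0.0939% of all 38320 entries tested), all lower at 24 h, with 307 at an unadjusted p under 0.05 and 5 by edgeR. In rachis limma called 0 of 6633 (beside 0.0206%), with 270 at an unadjusted p under 0.05 and 1 by edgeR. Without the 3 heads against their tissue labels the counts were 6 in floret and 0 in rachis, where 289 had an unadjusted p under 0.05.

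The 4 floret members called with EBR seed were consecutive in the order on 4A, at 53.3% to 53.4%: TraesCS4A03G0645300.1, TraesCS4A03G0645700.1, TraesCS4A03G0645900.1 and TraesCS4A03G0646100.1. At 24 h TraesCS4A03G0645300.1 had 11.2, 11.3, 23.2 and 16.1 normalized counts in EBR florets, against 190, 164, 50.3 and 159 at 0 h. TraesCS4A03G0645900.1 had 7.14, 13.1, 27.6 and 18.7 at 24 h, against 229, 184, 47.2 and 170 at 0 h. In both, as the rule for naming members required, all heads at 24 h were below all heads at 0 h, of which replicate 3 was the lowest. The log2 fold changes of the 4 were -3.01, -3.33, -3.10 and -2.97 in that order (adjusted p from 1.6e-03 to 0.017, limma). Without replicate 1 of every group, or without replicate 2, limma called none of the 6461 and 6482 members then tested, of which 246 and 271 had an unadjusted p under 0.05. With only the 2 groups fitted, the adjusted p of TraesCS4A03G0645900.1 was 0.085.

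With DMSO seed many more members changed over the day. In floret at 24 h against 0 h, 1531 of 6552 tested members were called (23.4%), beside 23.7% of all entries tested. Of these, 1004 rose and 527 fell, which is 15.3% and 8.04% of the tested members, beside 14.9% and 8.87% of all entries. In rachis 2642 of 6633 were called (39.8%, beside 39.4%). There, 1365 rose (20.6%, beside 20.9%) and 1277 fell (19.3%, beside 18.4%). Members and the whole table thus had near equal shares. With TMM (trimmed mean of M-values) scaling, the split was 887 up and 658 down in floret and 1199 up and 1464 down in rachis, where the direction of the majority turned.

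The head DMSO at 22 °C and 24 h replicate 2 lay nearest to the 0 h mean in 85.4% of the 1531 floret members called and in 88.4% of the 2642 rachis members called. The other 3 replicates did so in 2.35% to 7.05%. Over all called entries of the table the same head lay nearest in 85.9% and 88.9%, so among called entries it stood apart beyond the members. Without it, 2462 floret and 3436 rachis members were called. Without the 3 heads that went against their tissue labels, there were 1656 in floret and 2196 in rachis. When only the 2 groups compared entered the fit, 0 floret members were called, with 1341 at an unadjusted p under 0.05, and 1 rachis member, with 2180. The calls therefore rest on the spread estimated over all 16 groups of a tissue. edgeR, also fitted to all groups, called 1533 and 2629. When replicate 1 of every group was left out, 277 floret and 756 rachis members were called.

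Both tissues were cut from the same heads. Of the members called for the day change with DMSO seed, 885 were called in both tissues, 57.8% of those in floret and 33.5% of those in rachis. They moved in the same direction in 872 cases, 533 up and 339 down. The whole table gave 55.8% and 33.1%.

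The largest floret increase among members with a mean of at least 50 and no overlap of groups was TraesCS2B03G0757300.1 on 2B, at 44.6% of the order. With EBR seed it had 91.8, 472, 398 and 47.3 normalized counts at 24 h, against 8.01, 449, 13.2 and 11.95 at 0 h, with the groups overlapping through 1 head at 0 h. With DMSO seed it had 5267, 70.0, 6313 and 2470 normalized counts at 24 h, against 1.05, 8.18, 0.909 and 8.94 at 0 h. Replicate 2 was far below the other 3 at 24 h, and it was still above all 4 heads at 0 h. The log2 fold change was 8.48 (SE 1.58, adjusted p = 3.1e-04, limma), and the difference between the seeds was not called (adjusted p = 0.097). TraesCS2D03G0629900.1 on 2D, at 43.6% of the order, had almost the same profile with DMSO seed, at 4962, 49.5, 6569 and 2513 at 24 h against 0, 10.5, 2.73 and 5.96 at 0 h. Both lost the call when only the compared groups were fitted (adjusted p = 0.097 for each, limma). Whether these 2 entries are copies of each other on the B and D subgenomes, and share reads, was not tested.

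The largest floret decrease with DMSO seed by the same rule was TraesCS3D03G0652100.1. With EBR seed it had 184, 45.03, 46.3 and 77.6 at 24 h against 83.3, 39.7, 57.3 and 70.9 at 0 h, with overlap. With DMSO seed it had 12.5, 78.4, 19.4 and 28.3 at 24 h against 307, 79.5, 337 and 124 at 0 h. Replicate 2 of each group nearly met the other, with no overlap, and the log2 fold change was -2.67 (SE 0.55, adjusted p = 6.7e-04, limma). Its seed difference in day change was called (2.95 on the log2 scale, adjusted p = 0.033, limma), but its own day change was not called without replicate 1 (adjusted p = 0.052) or when the fit held only its 2 groups (adjusted p = 0.10).

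In rachis, the largest increase by the same rule was TraesCS3D03G0598000.1 on 3D, at 46.8% of the order. With EBR seed it had 16.4, 18.2, 15.3 and 4.88 normalized counts at 24 h, against 7.18, 7.92, 6.17 and 5.62 at 0 h. With DMSO seed it had 788, 3.87, 376 and 209 at 24 h, against 2.05, 3.37, 2.00 and 0 at 0 h. Replicate 2 at 24 h was barely above the highest 0 h head, and the other 3 were far above. The log2 fold change was 5.72 (SE 1.08, adjusted p = 2.8e-04, limma), and the seeds differed in day change by -4.91 on the log2 scale (adjusted p = 0.042, limma).

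TraesCS1B03G0668100.1 on 1B was the rachis member that fell most by this rule with DMSO seed. With EBR seed it had 150, 109, 71.5 and 112 normalized counts at 24 h and 140, 87.1, 86.3 and 123 at 0 h, and the groups overlapped. With DMSO seed it had 18.0, 119, 28.6 and 28.4 at 24 h, against 232, 215, 210 and 128 at 0 h. The 24 h head nearest to the 0 h group was again replicate 2. The log2 fold change was -2.36 (SE 0.40, adjusted p = 1.6e-04, limma). The seed difference was 2.37 on the log2 scale (adjusted p = 0.023, limma). Each of these 2 rachis members lost its day change call when only the 2 compared groups were fitted (adjusted p = 0.079, limma).

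**Figure D3:**
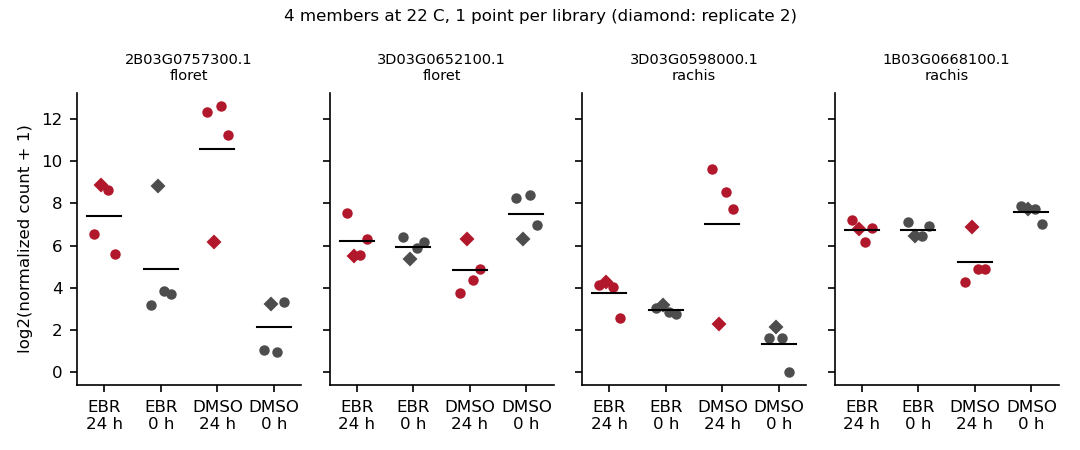
log2(normalized count + 1) of 4 members at 22 °C, 1 point per library, with EBR seed at 24 h and 0 h and then DMSO seed at 24 h and 0 h; lines are group means and diamonds mark replicate 2. In the DMSO 24 h group the diamond lies on the 0 h side of the other 3 points in all 4 panels, for example at 70.0 normalized counts for TraesCS2B03G0757300.1 where the other 3 heads had 2470 to 6313.

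The difference between the seeds in day change, EBR minus DMSO, was called in 224 floret members (3.42%, beside 3.48%) and 527 rachis members (7.95%, beside 8.08%). Those counts moved widely. They were 478 and 61 without the 3 heads that went against their tissue labels, 1430 and 2117 without DMSO at 22 °C and 24 h replicate 2, and 0 in each tissue without replicate 1 of every group, where 756 and 751 had an unadjusted p under 0.05.

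The same 4 entries made up most of the members that differed between EBR and DMSO seed before heat. At 0 h and 22 °C in floret, 7 members were called (0.107%, beside 0.164%), 5 higher and 2 lower with EBR, and 8 without the 3 heads. TraesCS4A03G0645300.1 had 190, 164, 50.3 and 159 normalized counts with EBR seed, against 3.14, 24.6, 5.45 and 10.9 with DMSO seed, with no overlap. Its log2 fold change was 3.74 (SE 0.55), with an adjusted p of 2.8e-04 by limma. The other 3 neighbours rose by 2.73, 3.03 and 3.88 on the log2 scale. The fifth, TraesCS3A03G0745300.2, averaged 14.8 ± 4.43 against 4.96 ± 2.96 normalized counts (SD, n = 4 each; adjusted p = 0.023 over all entries by limma). The naming rule covers neither this entry nor TraesCS4A03G0645700.1 and TraesCS4A03G0646100.1, which are named because so few were called, with their values in view.

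The 2 members lower with EBR seed at 0 h in floret were TraesCS4B03G0554400.1 and TraesCS2D03G0753500.1. TraesCS4B03G0554400.1 had 147, 139, 139 and 191 normalized counts with EBR, against 466, 275, 478 and 434 with DMSO (log2 fold change -1.40, SE 0.24, adjusted p = 7.3e-04, limma). TraesCS2D03G0753500.1 had 335, 307, 256 and 319 against 508, 580, 419 and 551 (log2 fold change -0.75, adjusted p = 0.018, limma). Neither pair of groups overlapped, as the naming rule required. Both calls were lost without replicate 1 of every group (adjusted p = 0.073 and 0.11), and those of TraesCS4A03G0645300.1 and TraesCS4A03G0645900.1 too (0.073 and 0.24). With only the 2 groups fitted, TraesCS2D03G0753500.1, TraesCS4A03G0645300.1 and TraesCS4A03G0645900.1 were not called (adjusted p = 0.091, 0.073 and 0.064, limma). Leaving out replicate 2 ended the calls of TraesCS2D03G0753500.1 and TraesCS4A03G0645900.1 (0.37 and 0.10), and leaving out replicate 4 that of TraesCS2D03G0753500.1 (0.081). In rachis limma called 0 members at 0 h (beside 0.00257%), with 596 at an unadjusted p under 0.05 and 0 by edgeR.

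Across all 16 conditions the 4 neighbours on 4A moved together, and not with seed, temperature or hour alone. In floret TraesCS4A03G0645300.1 averaged 207 ± 34.8 normalized counts with EBR at 29 °C and 24 h (SD, n = 4), and 8.78 ± 2.46 with EBR at 29 °C and 16 h (n = 3). With DMSO it averaged 226 ± 104 at 29 °C and 16 h, and 12.5 ± 2.39 at 29 °C and 24 h (n = 4 each). The library names hold a number from 1 to 16 after a P, 1 number for each condition and shared by its replicates, and the labels do not say what it stands for. The 27 floret libraries numbered 10 to 16 had 33.8 to 377 normalized counts (median 190), and the 34 numbered 1 to 9 had 3.14 to 119 (median 11.6). This split was seen in the data and has no test, and the number and the condition cannot be told apart.

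The same 4 entries were low in rachis in those conditions, where the 26 libraries numbered 10 to 16 had 4.56 to 27.5 normalized counts of TraesCS4A03G0645300.1. Its highest rachis values were 279 and 179 in DMSO at 22 °C and 0 h replicates 2 and 1, and 274 in EBR at 22 °C and 16 h replicate 1. The others of the 4 followed, with rachis maxima of 65.9 for TraesCS4A03G0645700.1, 318 for TraesCS4A03G0645900.1 and 46.0 for TraesCS4A03G0646100.1. Of these 3 heads, DMSO at 22 °C and 0 h replicate 1 is among those whose tissue labels were in doubt. In the rachis the day change with DMSO seed was called for all 4, from -3.55 to -1.97 on the log2 scale, where in floret none was called (log2 -0.14 to 0.28).

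**Figure D4:**
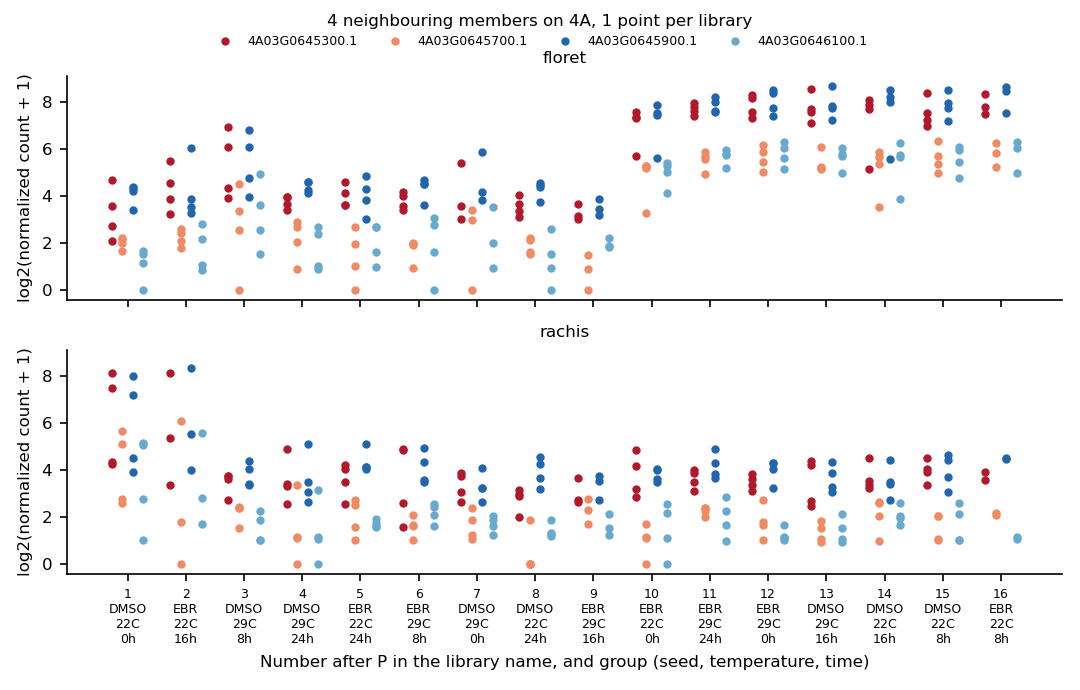
log2(normalized count + 1) of 4 consecutive members on 4A in every library, floret above and rachis below. Conditions stand in the order of the number after P in the library names, with seed, temperature and time under each. In floret the conditions numbered 10 to 16 lie above those numbered 1 to 9 for nearly all libraries (medians 190 and 11.6 for TraesCS4A03G0645300.1); in rachis the high points are single libraries of conditions 1 and 2.

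Over 0, 8, 16 and 24 h at 22 °C, with both seeds averaged, 2104 floret members were called (32.1%, beside 31.9%) and 2453 rachis members (37.0%, beside 36.4%). Of these, 1239 were called in both tissues, 58.9% of those in floret and 50.5% of those in rachis, beside 58.1% and 50.4% in the whole table. The median range between the highest and the lowest time mean of the called members was 0.57 in floret and 0.72 in rachis on the log2 scale, and in the outer entries 0.72 and 0.92. Without the 3 heads against their labels, 2210 and 2542 members were called. Without replicate 3 of every group, 55 rachis members were called.

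The called members had their highest and lowest means mostly at 8 and 24 h. Both seeds are averaged in these means, and peak hours were not counted for each seed. For 24 h against 0 h, 1531 floret and 2642 rachis members were called with DMSO seed, and few with EBR seed. In floret 9.70%, 38.9%, 12.1% and 39.3% were highest at 0, 8, 16 and 24 h, and 9.32%, 49.4%, 11.4% and 29.9% were lowest. In rachis 6.85%, 40.3%, 6.81% and 46.0% were highest and 6.12%, 48.1%, 4.48% and 41.3% lowest. At 24 h the whole table had 41.7% highest in floret and 46.8% in rachis, and the called outer entries had 45.4% and 53.2%. Heads at 0 and 24 h were taken at the same hour of the day. The peak hours were close on the 3 subgenomes. On A, B and D, 40.4%, 38.9% and 38.6% of the called floret members were highest at 24 h.

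TraesCS1D03G0642900.1 on 1D had the largest time range in floret among called members highest at 24 h with a mean of at least 50. The range was 6.05 on the log2 scale (adjusted p = 9.0e-04, limma F test). With EBR seed replicate 2 was the highest head at each time, with 729, 6.56, 316 and 919 at 0, 8, 16 and 24 h, while the other heads had at most 12.4, 4.03 and 5.09 at 0, 8 and 16 h. With DMSO seed its floret values were 2.09, 3.51, 0.909 and 3.97 at 0 h and 10.8, 8.32, 13.4 and 0 at 8 h. They were 3059, 1814, 508 and 22.5 at 16 h and 1634, 23.3, 2953 and 2328 at 24 h. High values with DMSO seed began at 16 h, and 1 head at 16 h and 1 at 24 h stayed near the earlier level. Among EBR heads, replicate 2 was already at 729 at 0 h.

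TraesCS4A03G0657900.1 was highest at 8 h in rachis, with a range of 3.09 on the log2 scale (adjusted p = 8.9e-04, limma F test). With DMSO seed it had 790, 621, 1063 and 473 normalized counts at 0 h and 739, 702, 1037 and 1960 at 8 h. It had 89.8, 190, 157 and 758 at 16 h and 24.0, 566, 57.3 and 25.8 at 24 h. The heads at 8 h were above all but 1 of the later heads, replicate 4 at 16 h. The call was lost without replicate 3 of every group (adjusted p = 0.090).

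At 24 h, 29 °C against 22 °C changed a small share of members with EBR seed. In floret there were 360 (5.49%, beside 4.9%), 169 higher (2.58%, beside 2.31%) and 191 lower (2.92%, beside 2.59%), and TMM gave 197 higher and 144 lower and edgeR 184 and 136, so the majority turned. In rachis there were 188 (2.83%, beside 2.61%). When only the 2 groups were fitted there were 193 and 110, and without replicate 2 of every group 109 and 45. Leaving out the 3 heads gave 453 and 204. The difference between the seeds in this heat change was not tested here. TraesCS4A03G0645900.1 and TraesCS4A03G0645300.1 led the floret increases among members with a mean of at least 50 and no overlap of groups. With EBR seed TraesCS4A03G0645900.1 had 194, 188, 251 and 294 at 29 °C, against the 7.14 to 27.6 at 22 °C given above. Both are among the 4A neighbours that moved with the number in the library name.

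TraesCS1D03G0532400.1 on 1D fell with EBR seed in both tissues. In floret it had 582, 556, 188 and 666 normalized counts at 29 °C, against 1370, 1678, 1575 and 1628 at 22 °C (log2 fold change -1.79, SE 0.35, adjusted p = 8.7e-04, limma). In rachis it had 381, 358, 190 and 551 against 899, 1262, 1303 and 1086 (log2 fold change -1.70, SE 0.44, adjusted p = 0.023, limma). All heads at 29 °C were below all heads at 22 °C in each tissue, as the naming rule required, and replicate 3 was the lowest. The floret call was lost without replicate 3 of every group (adjusted p = 0.066, limma), and the rachis call without replicate 1, 2 or 3 (adjusted p = 0.063, 0.17 and 0.35). TraesCS4B03G0594100.1 rose in rachis, with 128, 155, 126 and 102 at 29 °C against 37.4, 51.0, 39.8 and 55.6 at 22 °C (log2 fold change 1.46, SE 0.23, adjusted p = 7.4e-05, limma).

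With DMSO seed, 29 °C against 22 °C changed more members. In floret 2516 were called (38.4%, beside 38.5%), 1318 higher (20.1%, beside 21%) and 1198 lower (18.3%, beside 17.6%). TMM scaling gave 1157 higher and 1370 lower, and edgeR 1029 and 1409, so the majority turned. In rachis 2049 were called (30.9%, beside 30.3%), 1034 higher (15.6%, beside 15.8%) and 1015 lower (15.3%, beside 14.5%), and the majority turned there too, with 907 and 1145 by TMM and 829 and 1207 by edgeR. The 2 tissues shared 1225 called members, 48.7% of those in floret and 59.8% of those in rachis, beside 47.7% and 59.8% in the whole table. This comparison shares the DMSO 22 °C 24 h libraries with the day change. Without replicate 2 of that group, 1601 floret and 1209 rachis members were called, and when only the 2 groups were fitted, 1694 and 315. Leaving out the 3 heads gave 2641 and 2099.

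TraesCS2B03G0929700.1 on 2B was near 0 with EBR seed at 24 h in both tissues, with at most 2.64 normalized counts at 29 °C and 4.08 at 22 °C. With DMSO seed it had 1009, 714, 582 and 1273 in floret at 29 °C, against 0, 1.87, 0 and 0 at 22 °C. The 22 °C group held 2 reads, so the ratio of 1917 has a counting interval of 530 to 15832 (95%, exact, counting error only). The adjusted p was 7.0e-20 (limma). In rachis it was uneven at 29 °C, with 278, 12.5, 1.20 and 355. TraesCS3D03G0675100.1 fell, with 23.9, 13.6, 9.18 and 11.6 at 29 °C against 50.8, 111, 42.9 and 62.4 at 22 °C in DMSO florets (log2 fold change -2.11, SE 0.30, adjusted p = 2.4e-07, limma).

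In DMSO rachis TraesCS4D03G0512100.1 rose most by the rule, with 270, 936, 2100 and 2599 normalized counts at 29 °C, against 4.50, 0, 1.36 and 2.58 at 22 °C (log2 fold change 8.70, SE 0.72, adjusted p = 2.8e-13, limma). Its 29 °C heads were spread over a wide range and none came near the 22 °C heads. TraesCS3D03G0632700.1 fell, with 12.4, 4.18, 2.40 and 3.37 at 29 °C against 16.5, 251, 42.3 and 42.6 at 22 °C. The groups did not overlap, as the rule required, and the 22 °C head at 251 was replicate 2. Its log2 fold change was -3.25 (SE 0.66, adjusted p = 2.1e-04, limma), and with only the 2 groups fitted the adjusted p was 0.053.

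The seed treatment at 29 °C and 24 h separated members more than any other comparison made here. EBR against DMSO called 4307 floret members (65.7%, beside 65.4%), 1893 higher (28.9%, beside 29.1%) and 2414 lower (36.8%, beside 36.4%). In rachis 3977 were called (59.96%, beside 60.6%), 1814 higher (27.3%, beside 27.5%) and 2163 lower (32.6%, beside 33.1%). The tissues shared 3096 of these, 71.9% of those in floret and 77.8% of those in rachis, beside 72.6% and 77.3% in the whole table. The direction was the same in 3033 of the 3096 members and in 17886 of 18205 entries of the whole table. TMM scaling moved the median of all entries by 0.117 on the log2 scale in rachis. With it the counts were 2156 higher and 2179 lower in floret, and 2085 higher and 1857 lower in rachis, where the majority turned. With edgeR it turned in both tissues, at 2185 higher and 2113 lower in floret and 2008 higher and 1932 lower in rachis. The counts were 4389 and 4013 when the 3 heads were left out. This comparison shares the DMSO 29 °C libraries with the heat change of DMSO seed.

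TraesCS1D03G0567100.1 on 1D, at 50.6% of the order, rose most by the rule in both tissues. In floret it had 890, 856, 897 and 843 normalized counts with EBR seed, against 31.6, 23.1, 17.3 and 28.5 with DMSO seed (log2 fold change 5.09, SE 0.66, adjusted p = 5.7e-09, limma). In rachis it had 1392, 1595, 1850 and 1129 against 36.1, 35.5, 30.0 and 42.7 (log2 fold change 5.32, SE 0.71, adjusted p = 1.7e-08, limma). Replicates were close within each group and the groups were far apart. At 22 °C and 24 h the same member ranged from 135 to 471 in EBR florets and from 20.4 to 256 in DMSO florets, where replicate 2 gave the 256.

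TraesCS4D03G0512100.1 was at 0 in all 4 EBR rachis libraries at 29 °C and 24 h, against the 4 DMSO values of 270 to 2599 given above. Set against a floor of 3 reads over the group, it was at least 1971-fold lower with EBR. TraesCS1A03G0619400.1 fell in floret, with 0.878, 0, 0 and 0 normalized counts with EBR seed, against 976, 1982, 2006 and 3126 with DMSO seed. The EBR group held 1 read and the DMSO group 7964, a ratio of 9212 with an interval of 1653 to 363890 (counting error only). TraesCS3A03G0710100.1 in rachis had 16.9, 3.73, 3.90 and 10.3 with EBR, against 7206, 7213, 8132 and 7104 with DMSO (log2 fold change -9.81, SE 1.41, adjusted p = 9.2e-08, limma). In DMSO rachis at 22 °C and 24 h the same member already had 6559, 33.5, 4358 and 3692.

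Floret and rachis were compared in DMSO heads at 22 °C and 0 h, in a joint fit of both tissues. Limma called 0 of 6835 tested members (beside 0.00246%), with 502 at an unadjusted p under 0.05 and 1 by edgeR. Replicate 1 of this group is one of the 3 heads that went against their tissue labels. Without the 3 heads, 158 members were called (2.31%, beside 2.55%), 46 higher in floret and 112 lower. With the head as a block as well, 562 were called (8.23%, beside 8.66%), 217 higher and 345 lower. The heads were left out by a score built from the tissue difference in these same libraries. That choice favours more calls here, so these counts are no independent test of a tissue difference.

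Across these comparisons the share of members called stayed near that of all entries tested, and it varied between chromosomes. For the day change with DMSO seed in floret it ran from 20.0% on 4D to 26.4% on 1D, and in rachis from 34.8% on 3A to 42.8% on 4A. For EBR against DMSO at 29 °C and 24 h in floret it ran from 60.2% on 4D to 68.7% on 4A. On A, B and D, each pooling several chromosomes, 24.0%, 23.4% and 22.7% of the members were called for the floret day change. For the rachis day change it was 40.3%, 39.2% and 39.9%. No test was made of these differences between chromosomes or subgenomes.

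**Figure D5:**
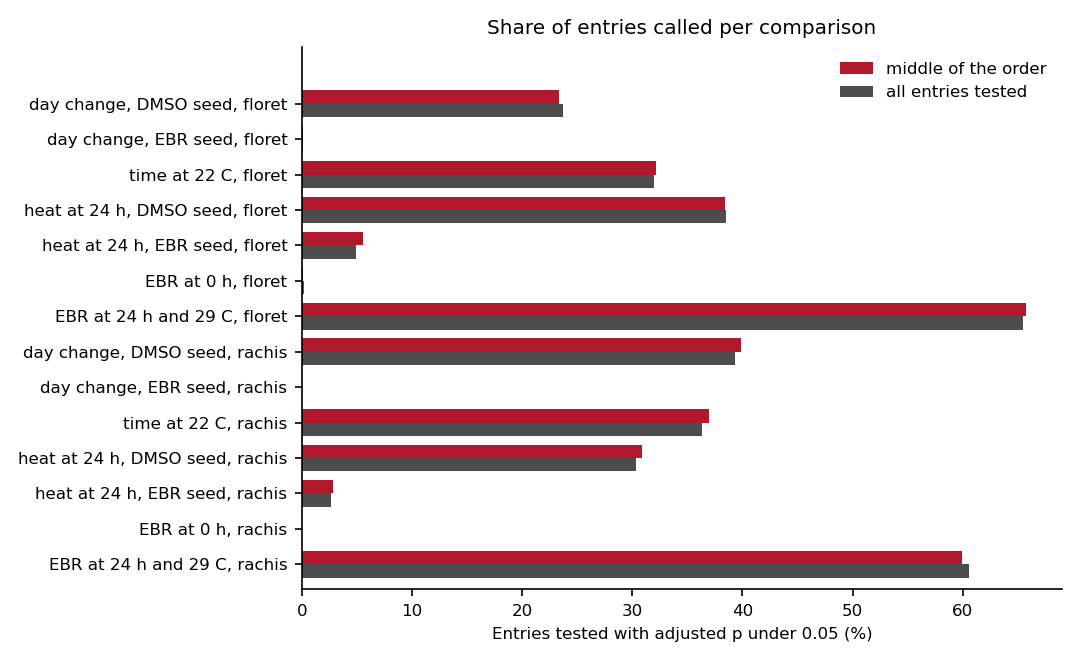
Percentage of tested entries with an adjusted p under 0.05 (limma) in 14 comparisons, red for members and grey for all entries tested, on an axis from 0. The 2 bars are of nearly the same length in each comparison, for example 65.7% and 65.4% for EBR against DMSO at 29 °C and 24 h in floret.

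Some consecutive members shared a level class or a direction of change. The longest run of consecutive members at 10 or more normalized counts in every library was 15 entries on 2A, from TraesCS2A03G0595300.1 to TraesCS2A03G0602700.1. The longest run with no library at 10 was 8 entries on 2B. The longest run of members higher at 24 h with DMSO seed in floret was 7 entries on 3B, from TraesCS3B03G0854900.1 to TraesCS3B03G0857600.1. Their log2 fold changes ran from 0.27 to 2.19, and 3 of the 7 exceeded 2-fold. The last of them averaged 404 normalized counts at 24 h against 305 at 0 h, while TraesCS3B03G0855100.1, with the largest change, averaged 43.4 against 11.4. These runs were picked from the data as the longest and have no test, and no run length was worked out for a random order or for other entries.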

How the data were processed

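RNA-seq libraries of wheat floret and rachis were analysed from 1 deposited table, in which 121 of the 122 labelled samples have a column; the other was not analysed here. The deposited values are a signal per entry, called normalized counts per the labels. The submitters' processing notes name Trimmomatic 0.36, STAR, featureCounts and DESeq2; the genome build and annotation release are not given in the sources used here. All values of each library were whole multiples of the value of 1 read, within 0.01 (100%), so reads were recovered for edgeR. Of 55578 entries, 1 was incomplete and left out. None of 53798 gene identifiers matched the reference table of gene names. No 2 replicates agreed within sampling noise (172 pairs, lowest chi-square per entry 2.92).

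limma 3.58.1 (R 4.3.3, intensity trend) was fitted to log2(value + 1) per tissue, with 1 mean per group and all groups in the fit, over entries with at least 10 in at least 3 libraries. Floret minus rachis used a joint fit. p-values were two-sided and adjusted by Benjamini-Hochberg over all entries tested. A fold change on the log2(value + 1) scale understates the change of low entries. The labels' replicate numbers do not pair groups, since each head was sampled once and same-numbered libraries did not deviate together (mean correlation 0.0011 in floret and 0.0098 in rachis). The 2 tissues of a head did (mean 0.24, over 0.1 in 46 of 59 heads). The code was tested on simulated data. Alternatives were TMM factors, edgeR 4.0.16 quasi-likelihood, pseudocounts of 0.5 and 5, no filter and a mean of at least 50. Others were the compared groups alone, the replicate block, each replicate number left out, other windows of the order and 1 entry per gene identifier. Within a tissue the replicate block was the replicate number as a covariate. In the joint fit it was the head as a block, with the correlation estimated on every 8th entry. Leaving out the 3 heads, and the DMSO 22 °C 24 h replicate 2 head, was added after seeing the data.

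Per comparison, up to 2 members that rose and 2 that fell were eligible to be named: those with the largest fold change among called members whose mean reached 50 and whose groups did not overlap. For time it was the largest range per peak hour, and for level the most abundant member of each subgenome. A named member could reach the mean of 50 through the group where it was high, and its groups were apart by the rule. The separation and the p-values of named members are therefore no independent support for their change. Counting intervals are exact binomial (95%), the floor is 3 reads over a group, and both cover counting error only. The members and lists were chosen with earlier results of these data known.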

Additional observations from a re-analysis of the deposited data

Results flagged for a closer look

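Of 189 groups of 4 libraries checked, 12 had a library far from the other 3, its gap to the nearest of them being a larger part of the range than Dixon's 95% critical value. Chance flags about 1 in 20 groups. In 4 the far library was DMSO at 22 °C and 24 h replicate 2: the members' share of counts in floret (20.45%, others 20.68% to 20.73%), and in rachis TraesCS1B03G0668100.1 (118.6 normalized counts, others 18.0 to 28.6), TraesCS1B03G0726900.1 (119.9, others 24.5 to 35.4) and TraesCS3D03G0632700.1 (251.3, others 16.5 to 42.6).

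The members' share of counts also had a far library in EBR florets at 22 °C and 0 h, replicate 2 (20.69%, others 20.76%), and in DMSO rachis at 22 °C and 16 h, replicate 4 (20.40%, others 20.77% to 20.84%). The D subgenome's share of the members' counts did in DMSO rachis at 22 °C and 0 h, replicate 3 (33.48%, others 33.72% to 33.76%), and in EBR rachis at 29 °C and 24 h, replicate 2 (33.36%, others 33.47% to 33.48%). The median level of members did in EBR florets labelled 29 °C at 0 h, replicate 3 (45.90 normalized counts, others 42.4 to 42.8), and in DMSO rachis at 29 °C and 24 h, replicate 2 (52.21, others 53.9 to 54.2). TraesCS4B03G0554400.1 stood apart in EBR florets at 22 °C and 0 h, replicate 4 (191.2, others 138.6 to 147.4), and TraesCS3A03G0710100.1 in DMSO rachis at 29 °C and 24 h, replicate 3 (8132, others 7104 to 7213).

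The day change at 22 °C differed between EBR and DMSO seed in 224 members in floret and 527 in rachis by limma. On the log2 scale the EBR day change minus the DMSO day change was 2.95 for TraesCS3D03G0652100.1 in floret (adjusted p = 0.033), -3.29 for TraesCS4A03G0645300.1 (0.021) and -3.30 for TraesCS4A03G0645900.1 (0.019). In rachis it was 2.37 for TraesCS1B03G0668100.1 (0.023), 1.69 for TraesCS1B03G0726900.1 (0.028), -4.71 for TraesCS3B03G0735900.1 (0.045) and -4.91 for TraesCS3D03G0598000.1 (0.042). Of the DMSO 24 h rachis group, replicate 2 is the head nearest to the 0 h values for most called members, and its part in these differences was not tested member by member.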

How the results depend on the processing

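Counts of members called kept within 1.5 times in 176 of the settings tried and moved further in 62. With only the compared groups fitted, members called for the day change with DMSO seed were 0 in floret and 1 in rachis, with EBR seed 1 in floret, for the seed difference in day change 2 and 0, for time in rachis 1476, for heat with DMSO seed in rachis 315, and for heat with EBR seed 193 and 110. Those fits have fewer libraries to estimate the spread. Without the 3 heads, the seed difference in day change gave 478 and 61, EBR at 0 h in rachis 1, and floret minus rachis 158, or 562 with the replicate block. The replicate block alone gave 2 for floret minus rachis and moved no other count by over 1.5 times; the replicate numbers do not pair the other groups. edgeR gave 1 for floret minus rachis and 1 for the EBR day change in rachis, and a pseudocount of 5 gave 1 for the EBR day change in rachis. A mean of at least 50 gave 2 for the EBR day change in floret, and no filter gave 93 and 291 for the seed difference.

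Leaving out a replicate number in every group, or the DMSO 22 °C 24 h replicate 2 head, gave ranges of members called, in floret and in rachis, of 277 to 2462 and 756 to 3436 for the day change with DMSO seed, 861 to 2727 and 55 to 3215 for time, 1157 to 2589 and 701 to 2438 for heat with DMSO seed, and 109 to 391 and 43 to 241 for heat with EBR seed. For the seed difference in day change they were 0 to 1430 and 0 to 2117. They were 0 to 6 for the EBR day change in floret, 1 to 15 for EBR at 0 h in floret and 0 to 69 for floret minus rachis. For the counts of 0, between 193 and 1593 members had an unadjusted p under 0.05. Where such a fit left 1 library in a group, that library is assumed to vary like the other groups.

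Members from 45% to 55% and from 35% to 65% of the order had median levels of 41.6 and 46.7 normalized counts and held 9.34% and 31.9% of counts; 1 entry per gene identifier gave 58.5 and 21.0%. In these 2 windows the medians were 37.4 and 43.0 on A and 43.8 and 48.4 on B, and on D 43.7 in the narrower. Among entries passing the filter they were 104, 115 and 106 on A, B and D. Thresholds of 1 and 50 left 0% and 36.0% of members below in every library. From 45% to 55%, 0.123% of tested members were called for the EBR day change in floret and 0.184% for EBR at 0 h. Among the recomputed values of named members, 584 stayed on their side of the threshold, 46 lost the call and 0 reversed. Members at 10 or fewer counts rest on few reads and have wide counting error. With no filter 4646 members were called, against 4307 with it, for EBR at 29 °C and 24 h in floret.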
